A study of Homo sapiens with 12 samples.

Results

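The EGFR family is described here by 9 genes, chosen by symbol. They are the receptor genes EGFR, ERBB2 and ERBB3 and the ligand genes TGFA, AREG, EREG, HBEGF, BTC and EPGN. All 9 were found among the 60099 genes listed, and all 9 were among the 19944 genes that passed a filter on low counts. RNA was sequenced from Cal27 and HN30, established lines of head and neck squamous cell carcinoma (HNSCC), left without IFNα or kept for 24 h with 20 or 200 ng/ml of it. IFNα is a type I interferon, a cytokine that switches on antiviral genes. The 12 samples carry the letters A, B and C (0, 20 and 200 ng/ml) and D, E and F (the same doses), with 2 replicates under each letter. The letters A to C are called line set A-C and the letters D to F line set D-F, each taken as 1 line. The labels do not say which set is which line, nor whether replicates were separate cultures, so that the p-values measure only the spread between these samples, which may be technical.

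EGFR, ERBB2 and ERBB3 are receptors in the plasma membrane that work in pairs. Ligand binding brings receptors together, the kinase domains phosphorylate the tails, and the signal runs through RAS to the kinase ERK. ERBB2 binds no ligand of its own and ERBB3 has little kinase activity, so each of them signals mainly with a partner. The ligands are made as membrane proteins and are released by proteases such as ADAM17. TGFA, AREG and EPGN bind EGFR, whereas EREG, HBEGF and BTC bind EGFR and ERBB4. EGFR is abundant in squamous epithelium and is a drug target in HNSCC.

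EPGN, EREG, AREG and BTC lie in 1 cluster on chromosome 4 that spans 486 kb in the coordinates of the deposited table. EREG (chr4:74365143-74388751, plus strand) and AREG (chr4:74445134-74455009, plus strand) are separated by 56.4 kb, and BTC (chr4:74744759-74794686, minus strand) lies 289.8 kb beyond AREG. The stretches upstream of EREG (chr4:74364895-74365142), AREG (chr4:74444886-74445133), HBEGF (chr5:140346632-140346853, minus strand) and BTC (chr4:74794687-74794773, minus strand) are shown because EREG, HBEGF and BTC are the ligands whose increase with IFNα is described below and AREG is the close neighbour of EREG. They are RefSeq sequence (GRCh38.p14, while the deposited table follows GRCh38.p10), each running 5′ to 3′ on the strand of the gene and ending before the first base of the gene in the annotation. Capitals mark TATAAA, the core of a TATA box, and TGACGTCA, the cAMP response element.
EREG: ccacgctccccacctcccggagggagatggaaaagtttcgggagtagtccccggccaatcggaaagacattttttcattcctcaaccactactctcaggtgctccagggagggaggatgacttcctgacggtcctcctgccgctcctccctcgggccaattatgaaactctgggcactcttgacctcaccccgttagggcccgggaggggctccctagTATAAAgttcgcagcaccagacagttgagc
AREG: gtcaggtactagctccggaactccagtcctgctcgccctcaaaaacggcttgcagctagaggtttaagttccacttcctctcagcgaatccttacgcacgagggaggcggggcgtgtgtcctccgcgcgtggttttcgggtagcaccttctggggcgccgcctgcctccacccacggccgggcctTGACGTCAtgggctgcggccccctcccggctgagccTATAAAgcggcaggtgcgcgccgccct
HBEGF: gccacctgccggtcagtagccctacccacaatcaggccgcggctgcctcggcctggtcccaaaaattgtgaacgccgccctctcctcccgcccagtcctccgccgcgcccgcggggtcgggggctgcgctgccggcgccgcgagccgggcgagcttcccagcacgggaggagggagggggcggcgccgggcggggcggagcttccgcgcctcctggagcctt
BTC: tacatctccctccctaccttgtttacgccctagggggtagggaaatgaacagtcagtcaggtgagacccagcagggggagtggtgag
RefSeq windows from 250 bases before to 50 bases after the start were matched for 8 of the 9 genes, all but ERBB3, and there were 10 such windows. EREG and AREG both hold TATAAA close to the RefSeq start, at -32 and -29, and AREG also holds TGACGTCA at -65. TATAAA was also found at -29 of EPGN and at -146 and -36 of an alternative EGFR start, and neither motif was found in the windows of ERBB2, TGFA, HBEGF and BTC. Both motifs were chosen after the expression values were seen. Of all 35116 RefSeq windows of this length, 11.5% held TATAAA and 1.85% held TGACGTCA on either strand. The interferon response element (in 3.57% of windows) and the STAT element (TTCNNNGAA, in 7.66%) were found on neither strand in any of the 10 windows of the 8 genes. The AP-1 element (TGANTCA, in 7.71%) was found in ERBB2 at -222 and at -232 and -136 of the same alternative EGFR start. These matches are letters within a window and were not tested for function.

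The total count per sample ran from 10517448 to 16056734. Across 13033 genes, log2 counts scaled to library size (CPM) correlated at 0.940 to 0.976 between libraries of 1 line set (30 pairs) and at 0.678 to 0.717 between libraries of different sets (36 pairs). The interferon-induced genes MX1, ISG15, IFIT1, OAS1 and IRF9 rose at least 2-fold at both doses. Of the squamous markers KRT5, KRT14, KRT17, KRT6A, CDH1, DSG3 and SFN, all 7 were expressed in line set A-C (summed 2297 to 2761 TPM), while KRT14 was at 0 to 3 counts in line set D-F (summed 909 to 1179 TPM). The immune markers CD3E and PTPRC had at most 2 counts in any sample. CDH5, an endothelial cadherin, stood at 15.2 to 21.7 TPM in line set A-C and at most 0.156 TPM in D-F, with PECAM1 at 0 in A-C. At 200 ng/ml averaged over line sets, 3 of the 7 squamous markers rose (KRT6A, KRT14 and DSG3), where 4.98% of all genes rose. The KRT14 call went with 0 counts in both D samples and 2 and 3 counts in F, while in A-C it changed by 0.14 (adjusted p = 0.614). Of the markers of other cell types, only 1 of 4 immune, 3 of 4 fibroblast, 1 of 3 endothelial and 1 of 2 melanocyte genes were tested. Of those tested, 0 passed in the same average with edgeR, where 9.55% of all genes passed. At an unadjusted p of 0.05 the count was 0, and with DESeq2 it was 0, where 2246 of all genes passed. Within single sets 2 fibroblast markers reached an unadjusted p of 0.05 and did not pass, COL1A1 in A-C (log2 change -0.51, adjusted p = 0.106) and PDGFRB in D-F (1.70, adjusted p = 0.125). The part of these markers in the results was not tested.

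Without IFNα, EGFR was the most abundant gene of the family in both line sets. Levels are given first in TPM, which is scaled for transcript length and library size, and so can be set side by side between genes. In the A control samples EGFR stood at 454 and 447 TPM. TGFA followed at 44.3 and 43.8 TPM and ERBB2 at 43.7 and 38.1 TPM. ERBB3 (36.1 and 32.5 TPM) and HBEGF (33.3 and 31.6 TPM) overlapped and were next in order. AREG (17.5 and 19.0 TPM) and EREG (16.6 and 17.0 TPM) were lower and close to each other. BTC stood at 1.22 and 0.416 TPM, and EPGN was listed at 0 in both samples. EGFR thus made up 85.1% to 90.3% of the summed TPM of the 3 receptors over the 6 samples of line set A-C, and it ranked between 140 and 199 among all genes listed.

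The order differed in the D control samples, where EREG came directly after EGFR. EGFR stood at 352 and 334 TPM, EREG at 192 and 182 TPM, and ERBB2 at 87.1 and 93.0 TPM. ERBB3 (49.3 and 48.2 TPM), TGFA (44.4 and 40.1 TPM), AREG (35.5 and 30.9 TPM) and HBEGF (24.7 and 26.7 TPM) followed without overlap between neighbours. BTC (3.69 and 3.04 TPM) and EPGN (1.76 and 0.914 TPM) were again lowest. EGFR made up 68.2% to 72.1% of the receptor TPM in line set D-F.

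The question of the first comparison was how far the untreated line sets differ in these genes. Between the D and A control samples, 7 of the 9 genes passed an adjusted p of 0.05, 5 higher and 2 lower in D. Of all genes tested, 46.4% passed, 24.1% higher and 22.4% lower. With a change of at least 2-fold in addition, 2 members remained, EREG and BTC, against 26.6% of all genes. Changes were tested on the deposited counts, and CPM after TMM scaling is given beside them.

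EREG, which encodes epiregulin, showed the widest gap among the members that passed. It stood at 42.0 and 44.8 CPM in A and at 426 and 405 CPM in D, and the groups did not overlap. The log2 difference was 3.26 (SE 0.12, adjusted p = 1.15e-07), which is 9.57-fold. AREG, its neighbour on chromosome 4, encodes amphiregulin and stood at 12.9 and 14.9 CPM in A and at 25.1 and 21.8 CPM in D. Its log2 difference was 0.75 (SE 0.21, adjusted p = 0.0157), and it did not pass without A replicate 1 or D replicate 1 (adjusted p up to 0.0949). BTC, which encodes betacellulin, had 2.18 and 0.775 CPM in A and 4.84 and 5.05 CPM in D, a log2 difference of 1.77 (SE 0.38, adjusted p = 0.00365). The size of this gap rested on the A samples, being 2.66 without A replicate 1 and 1.18 without A replicate 2. HBEGF, which encodes heparin-binding EGF-like growth factor, lay the other way. It stood at 44.6 and 44.0 CPM in A and at 30.7 and 31.2 CPM in D (log2 difference -0.52, SE 0.15, adjusted p = 0.0152). Leaving out any 1 of these 4 control samples ended the HBEGF call (adjusted p up to 0.0726). TGFA, which encodes transforming growth factor alpha, did not pass (log2 difference -0.17, 95% interval -0.42 to 0.09).

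Among the receptors, ERBB2 was higher and EGFR lower in D. ERBB2 stood at 86.7 and 78.1 CPM in A and at 151 and 175 CPM in D, a log2 difference of 0.98 (SE 0.12, adjusted p = 1.23e-04). EGFR stood at 2170 and 2235 CPM in A and at 1383 and 1380 CPM in D, a log2 difference of -0.67 (SE 0.07, adjusted p = 5.06e-05). ERBB3 was higher in D by 0.34 (SE 0.09, adjusted p = 0.0118), and this call was lost without A replicate 2 or D replicate 2 (adjusted p up to 0.0683). EPGN, which encodes epigen, had 0 counts in both A samples and 7 and 4 counts in D, too few for a fold change.

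**Figure D1:**
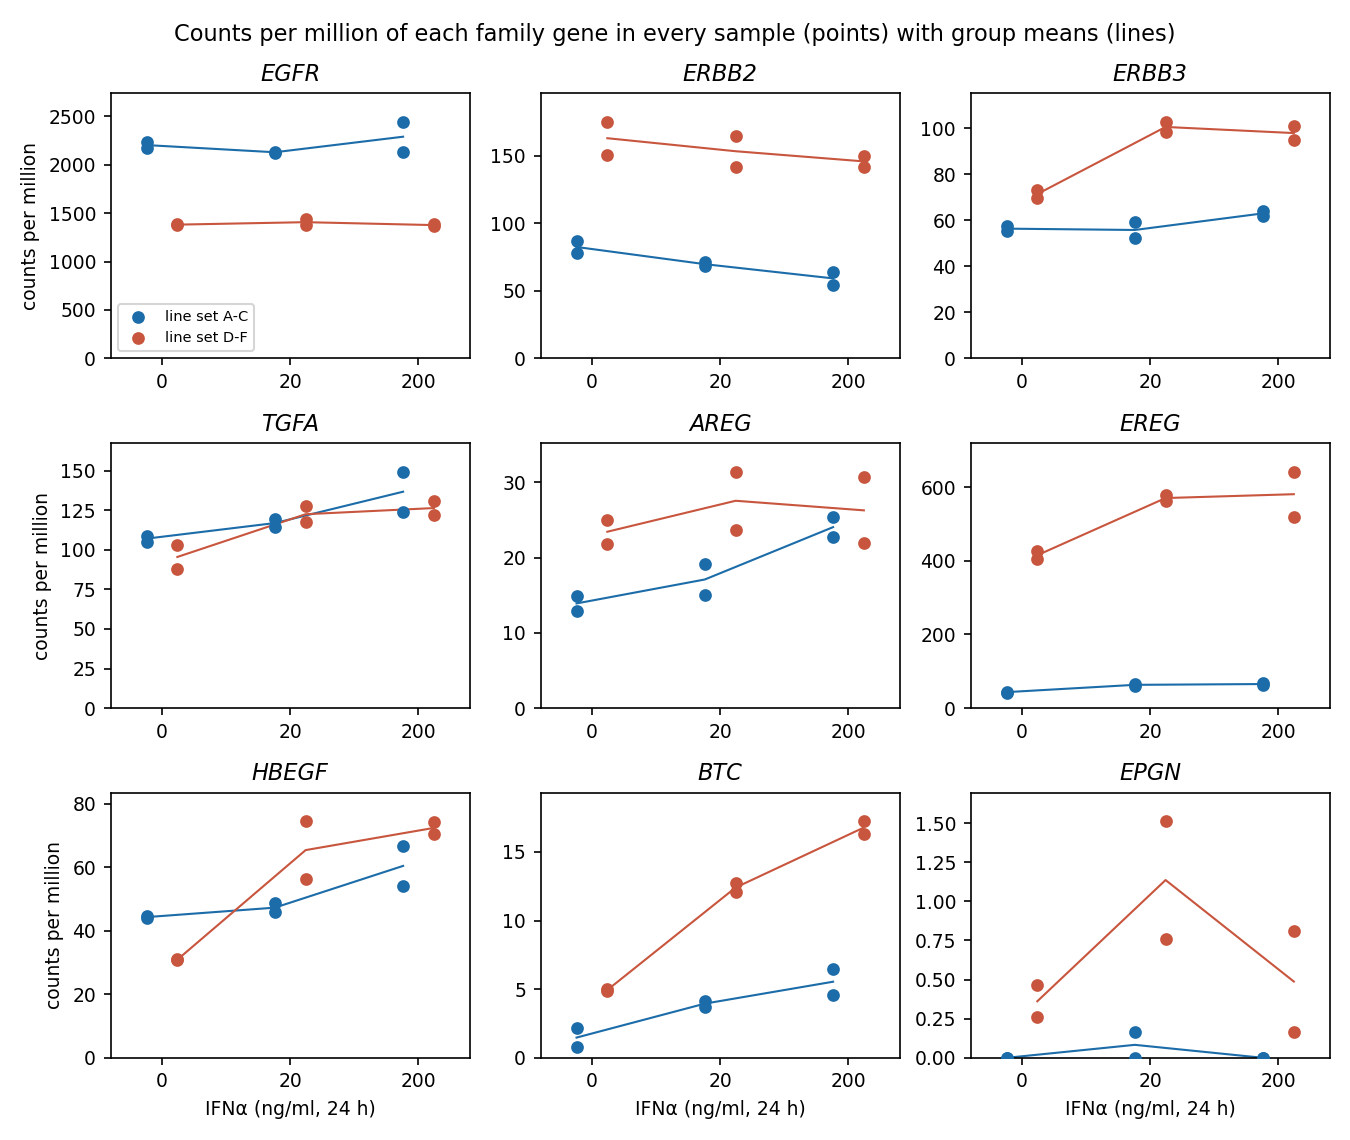
CPM (vertical axis, linear from 0, scaled by TMM) of the 9 genes against the IFNα dose in ng/ml, 1 panel per gene. Each point is a sample, blue for line set A-C and red for D-F, and lines join the means of the 2 replicates. EREG at 0 ng/ml lies at 42.0 and 44.8 CPM in A-C and at 426 and 405 CPM in D-F, and no BTC sample with IFNα lies at or below a control sample of its set.

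The second question was how the family responds to IFNα. At 200 ng/ml, averaged over the line sets, 6 of the 9 genes passed, 5 higher and 1 lower. Of all genes tested, 9.55% passed, 4.98% higher and 4.57% lower. The 5 that rose were BTC, HBEGF, EREG, TGFA and ERBB3, and the 1 that fell was ERBB2. BTC was the only member that also changed by at least 2-fold, against 2.14% of all genes. The median log2 change of the 9 genes was 0.38, beside -0.01 over all genes tested. The 9 include EPGN, whose counts were too few for a fold change. At 20 ng/ml 3 genes passed, BTC, HBEGF and EREG, all higher, where 3.93% of all genes passed and 2.33% were higher. The doses share their control samples, so the 20 and 200 ng/ml results are not independent of each other. In bulk RNA a change in the number of cells that express a gene and a change in RNA per cell cannot be told apart.

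BTC showed the largest increase among the members that passed. In line set A-C it stood at 2.18 and 0.775 CPM without IFNα, 3.73 and 4.16 CPM at 20 ng/ml, and 6.49 and 4.60 CPM at 200 ng/ml. In D-F it stood at 4.84 and 5.05 CPM, 12.1 and 12.7 CPM, and 17.2 and 16.3 CPM. In CPM the samples of the 3 doses did not overlap in either set. In TPM the 20 ng/ml (3.10 and 2.32) and 200 ng/ml (3.50 and 2.57) samples of A-C overlapped. The log2 change was 1.39 (SE 0.25, adjusted p = 0.0151) at 20 ng/ml and 1.85 (SE 0.25, adjusted p = 0.00190) at 200 ng/ml, the latter being 3.61-fold. The 200 ng/ml change passed without each of the 12 libraries in turn, ranging from 1.55 to 2.29. The 20 ng/ml change was lost without B replicate 2, D replicate 1, D replicate 2 or E replicate 2 (adjusted p up to 0.0590). BTC was read at low depth, with 12 to 27 counts in the A samples.

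HBEGF encodes a ligand that is also known as an early target of growth factor signalling. In D-F it stood at 30.7 and 31.2 CPM without IFNα, 56.4 and 74.5 CPM at 20 ng/ml, and 74.4 and 70.5 CPM at 200 ng/ml. In A-C the corresponding values were 44.6 and 44.0 CPM, 48.7 and 45.9 CPM, and 54.1 and 66.8 CPM. Every treated sample was above the control samples of its set. Averaged over the sets, the log2 change was 0.59 (SE 0.10, adjusted p = 0.0116) at 20 ng/ml and 0.84 (SE 0.10, adjusted p = 9.61e-04) at 200 ng/ml. Both passed without each of the 12 libraries in turn.

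EREG rose by a like amount at both doses. In A-C it stood at 42.0 and 44.8 CPM, 59.7 and 66.7 CPM, and 62.6 and 68.1 CPM at 0, 20 and 200 ng/ml. In D-F it stood at 426 and 405 CPM, 561 and 580 CPM, and 520 and 642 CPM. Treated and control samples did not overlap in either set. The log2 change was 0.50 (SE 0.08, adjusted p = 0.00576) at 20 ng/ml and 0.54 (SE 0.08, adjusted p = 0.00233) at 200 ng/ml, and both passed without each of the 12 libraries in turn.

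TGFA and AREG moved less clearly. TGFA stood at 109 and 105 CPM in A and 124 and 149 CPM in C, and at 103 and 88.1 CPM in D and 131 and 122 CPM in F. At 200 ng/ml it rose by 0.38 on the log2 scale (SE 0.08, adjusted p = 0.0161), and the call was lost without A replicate 2, D replicate 2 or F replicate 1 (adjusted p up to 0.0677). AREG stood at 12.9 and 14.9 CPM in A and 22.7 and 25.4 CPM in C, whereas D (25.1 and 21.8 CPM) and F (30.6 and 21.9 CPM) overlapped. Its averaged change of 0.48 (SE 0.15) did not pass with edgeR (adjusted p = 0.0804) and passed with DESeq2 (adjusted p = 0.0441). EPGN had 0 to 2 counts in each sample of A-C. It had 7 and 4 counts in D, 9 and 19 in E, and 2 and 10 in F, so that no change could be read at this depth.

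Of the receptors, EGFR moved little. EGFR stood at 2170 and 2235 CPM in A, 2133 and 2124 CPM in B, and 2136 and 2442 CPM in C. In D, E and F it stood at 1383 and 1380 CPM, 1375 and 1438 CPM, and 1390 and 1363 CPM. The averaged log2 change was 0.03 at 200 ng/ml (95% interval -0.09 to 0.14) and -0.01 at 20 ng/ml (95% interval -0.12 to 0.10). EGFR was read with 16271 to 34620 counts per sample, the deepest of the 9 genes.

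ERBB3 rose by 0.31 at 200 ng/ml (SE 0.06, adjusted p = 0.0159). It stood at 69.8 and 73.0 CPM in D, 103 and 98.4 CPM in E, and 94.9 and 101 CPM in F, without overlap between D and the treated samples. In A, B and C it stood at 57.4 and 55.4 CPM, 59.2 and 52.4 CPM, and 61.8 and 64.2 CPM. The call was lost without A replicate 2, D replicate 1 or F replicate 2 (adjusted p up to 0.0697). On log2(TPM + 1) the averaged change was 0.05 (limma, adjusted p = 0.828). At 20 ng/ml the averaged change passed with DESeq2 (adjusted p = 0.0465) and not with edgeR.

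ERBB2 fell by 0.32 on the log2 scale at 200 ng/ml (SE 0.08, adjusted p = 0.0445). It stood at 86.7 and 78.1 CPM in A, 68.2 and 71.2 CPM in B, and 64.2 and 54.1 CPM in C, without overlap. D (151 and 175 CPM) and F (150 and 142 CPM) were closer, with E at 142 and 165 CPM between them in part. This call was close to the threshold and was lost when any 1 of 8 libraries was left out, namely both replicates of A, B and F, C replicate 2 and D replicate 2 (adjusted p up to 0.146). On log2(TPM + 1) the averaged change was -0.20 (limma, adjusted p = 0.348).

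**Figure D2:**
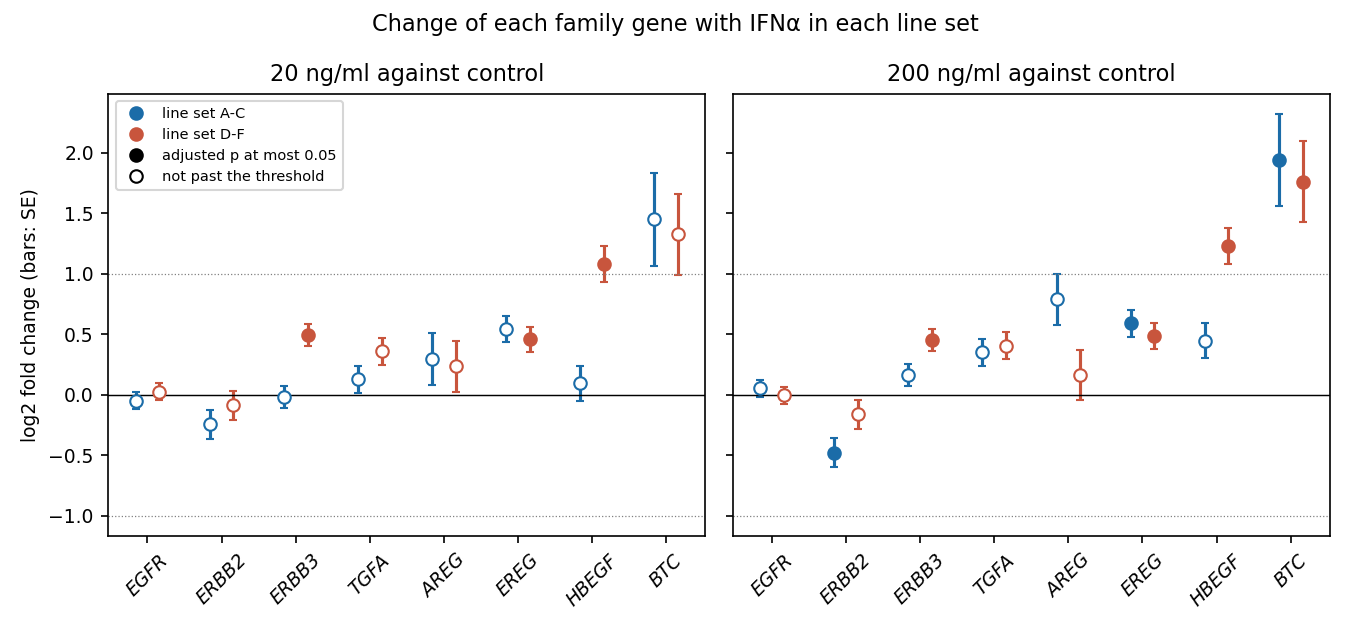
Log2 fold changes (vertical axis) of 8 genes at 20 ng/ml (left) and 200 ng/ml (right) against the control of the same line set, with bars of 1 standard error. Blue stands for A-C and red for D-F, filled points passed an adjusted p of 0.05, and dotted lines mark 2-fold. HBEGF at 200 ng/ml lies at 0.45 in A-C and 1.23 in D-F, while BTC lies at 1.94 and 1.76.

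The line sets were also tested one at a time. At 200 ng/ml, 3 members passed in A-C (ERBB2, EREG and BTC), where 7.18% of all genes passed, and 4 passed in D-F (ERBB3, EREG, HBEGF and BTC), where 5.84% of all genes passed. BTC changed by 1.94 in A-C (SE 0.38, adjusted p = 0.0188) and by 1.76 in D-F (SE 0.33, adjusted p = 0.0142). The A-C value was 1.35 without A replicate 2 (adjusted p = 0.0612), 2.82 without A replicate 1 and 1.66 without C replicate 1 (adjusted p = 0.0648). The D-F call was lost without either replicate of D or F (adjusted p up to 0.111). EREG changed by 0.59 in A-C (SE 0.11, adjusted p = 0.0148) and by 0.48 in D-F (SE 0.11, adjusted p = 0.0266). It was lost in A-C without A replicate 1, A replicate 2 or C replicate 2 (adjusted p up to 0.0836). In D-F it was lost without either replicate of D, E replicate 1 or F replicate 2 (adjusted p up to 0.204). ERBB2 fell by 0.48 on the log2 scale in A-C (SE 0.12, adjusted p = 0.0451), and the call was kept when C replicate 1 was left out and lost when any other single library was (adjusted p up to 0.222). ERBB3 rose by 0.46 in D-F (SE 0.09, adjusted p = 0.0171), which was lost without either replicate of D or F (adjusted p up to 0.139). With only the groups compared in the fit, ERBB2 (adjusted p = 0.175), EREG (0.104) and BTC (0.152) did not pass in A-C. In D-F, ERBB3 (0.0573) and EREG (0.0919) did not pass. Over all genes, 210 passed in A-C and 814 in D-F in those fits, beside 1432 and 1164 in the main fit. DESeq2 also called TGFA in A-C (adjusted p = 0.0478) and D-F (0.0379) and AREG in A-C (0.0159). It called 1924 of all genes in A-C and 1554 in D-F.

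Among the 8 genes given a fold change, HBEGF showed the widest gap between the sets. It rose by 1.23 in D-F at 200 ng/ml (SE 0.15, adjusted p = 9.78e-04), or 2.34-fold, which passed without each library in turn. In A-C its change was 0.45 (SE 0.14, adjusted p = 0.0999). The difference between these changes was 0.78 (SE 0.20, 95% interval 0.32 to 1.24) and did not pass with edgeR (adjusted p = 0.0927), whereas DESeq2 gave an adjusted p of 0.0404. At 20 ng/ml HBEGF changed by 1.08 in D-F (SE 0.15, adjusted p = 0.00290) and by 0.09 in A-C (SE 0.14). The difference was 0.99 (SE 0.20, 95% interval 0.53 to 1.45), with an adjusted p of 0.0928 with edgeR and 0.00743 with DESeq2.

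For the difference between sets as a whole, 0 of the 9 genes passed with edgeR at 200 ng/ml, where 1.88% of all genes passed, and 0 at 20 ng/ml, where 0.371% passed. At an unadjusted p of 0.05 the counts were 2 and 2. DESeq2 called 1 member at each dose, HBEGF, where it called 884 of all genes at 200 ng/ml and 319 at 20 ng/ml. AREG pointed the other way, with a change at 200 ng/ml of 0.79 in A-C (adjusted p = 0.0586 with edgeR and 0.0159 with DESeq2) and 0.16 in D-F, but the difference of -0.62 (95% interval -1.29 to 0.05) did not pass. For BTC and EREG the differences at 200 ng/ml did not pass either, being -0.18 (95% interval -1.28 to 0.92) and -0.11 (95% interval -0.45 to 0.23).

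At 20 ng/ml, 0 members passed with edgeR in A-C, where 1.11% of all genes passed, and 2 reached an unadjusted p of 0.05. DESeq2 called 2 members there, where it called 506 of all genes. In D-F 3 members passed with edgeR, HBEGF, ERBB3 and EREG, where 3.37% of all genes passed. With DESeq2 4 members passed in D-F, where 1004 of all genes did. BTC changed there by 1.33 (SE 0.33) and did not pass with edgeR (adjusted p = 0.0706), but passed with DESeq2 (0.00558) and with only the groups compared (0.0334). ERBB3 rose by 0.49 in D-F (SE 0.09, adjusted p = 0.0174) and changed by -0.02 in A-C (SE 0.09). The D-F call was lost without either replicate of D or E (adjusted p up to 0.134), and the difference between sets was 0.51 (95% interval 0.22 to 0.80, adjusted p = 0.167). EREG changed by 0.46 in D-F (SE 0.11, adjusted p = 0.0490), a call that was kept only without F replicate 1 or F replicate 2 (adjusted p up to 0.245).

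Between 200 and 20 ng/ml, 0 of the 9 genes passed with edgeR, where 0.135% of all genes passed. At an unadjusted p of 0.05 the count was 1, HBEGF, and with DESeq2 it was 0, where 167 of all genes passed. HBEGF was higher at 200 ng/ml by 0.25 (95% interval 0.02 to 0.48, adjusted p = 0.505) and BTC by 0.46 (95% interval -0.07 to 1.00, adjusted p = 0.589). EREG differed by 0.04 (95% interval -0.13 to 0.21).

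In TPM, the ligand RNA of the samples grew with treatment, and its make-up differed between line sets. The summed level of the 6 ligand genes was 113 and 112 TPM in A, 130.0 and 134 TPM in B, and 142 and 170.0 TPM in C. It was 302 and 284 TPM in D, 402 and 425 TPM in E, and 415 and 451 TPM in F. Treated samples were above the control samples in both sets. EREG made up 14.7% to 19.2% of this sum in A-C and 55.7% to 64.2% in D-F. In A-C, TGFA was the largest component, from 33.3% to 39.3%. HBEGF went from 8.18% and 9.42% in D to 15.5% and 13.4% in F, while BTC stayed at or below 2.82% in all samples. These sums and shares were not tested. In C replicate 2, the A-C sample with the highest ligand sum, the 3 receptors also summed higher, to 617 TPM. In the rest of A-C the receptor sum was 512 to 534 TPM.

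**Figure D3:**
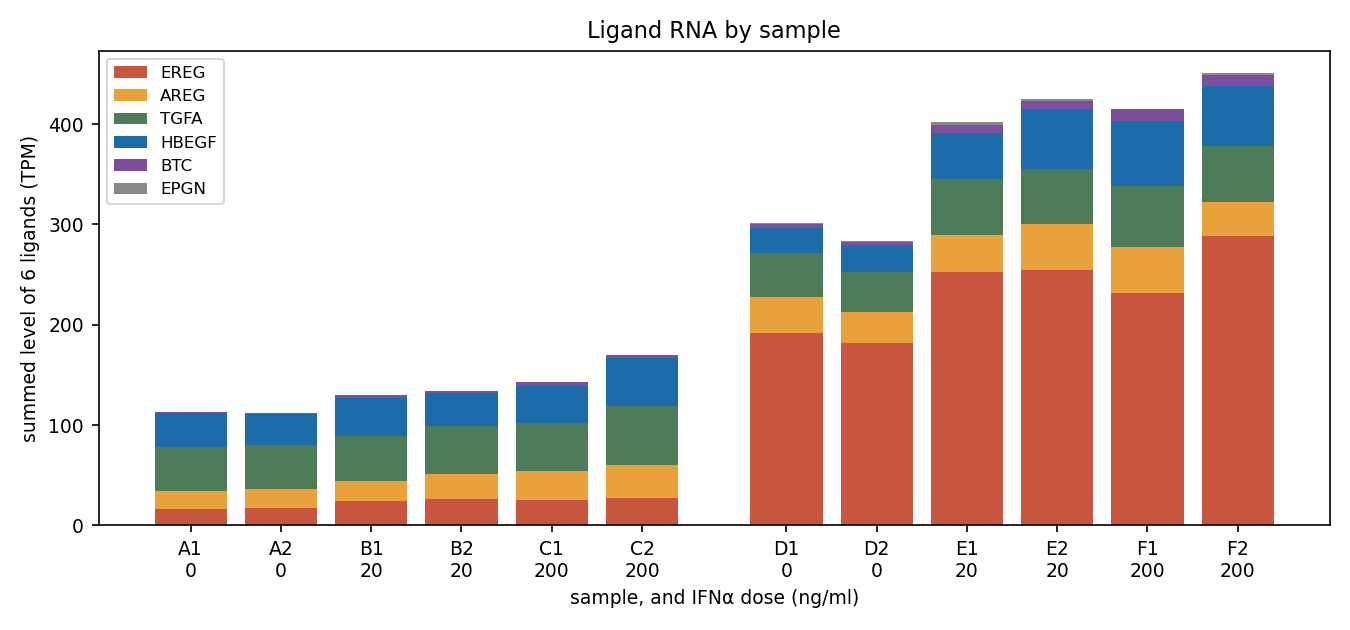
Summed TPM of the 6 ligand genes (vertical axis, linear from 0) in each of the 12 samples, with the IFNα dose in ng/ml under each sample and 1 colour per gene. The A-C bars reach 112 to 170.0 TPM and the D-F bars 284 to 451 TPM, and the red EREG segment fills over 55% of each D-F bar.

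The other genes of the family were examined by level. NRG1, which encodes a ligand of ERBB3 and ERBB4, stood at 152 to 221 TPM in A-C and at 0.856 to 3.82 TPM in D-F. Untreated, it was lower in D than in A by a log2 difference of -6.11 (SE 0.22, adjusted p = 1.15e-07). In D-F it fell at 200 ng/ml by 1.18 on the log2 scale (SE 0.27, adjusted p = 0.0362), from 49 and 71 counts to 27 and 15 counts. In A-C it changed by 0.34 (SE 0.17, adjusted p = 0.266), and the difference between sets was -1.53 (SE 0.32, adjusted p = 0.0493). Both NRG1 calls with IFNα were close to the threshold, and they were not rerun with samples left out, as the members were. NRG4, a ligand of ERBB4, lay the other way, at 0.551 to 2.01 TPM in A-C and 14.3 to 22.8 TPM in D-F (log2 difference 2.99, SE 0.41, adjusted p = 2.57e-04). EGF stood at 1.47 to 3.39 TPM in A-C and 0.381 to 1.29 TPM in D-F. ERBB4 had at most 9 counts in any sample, NRG2 at most 2 and NRG3 was at 0 in all 12, so that none of these 3 passed the filter.

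The surrounding pathway was taken from 4 lists. Of the sheddases and their trafficking partners (ADAM10, ADAM17, RHBDF1, RHBDF2 and FRMD8), 0 of 5 passed with edgeR at 200 ng/ml averaged over line sets, where 9.55% of all genes passed, and at an unadjusted p of 0.05 the count was 0. ADAM17, a protease that releases ligands of this family, changed by 0.06 (95% interval -0.10 to 0.22), and FRMD8 by 0.35 (SE 0.20, adjusted p = 0.324). Of the adaptors and internalisation genes (GRB2, SHC1, SOS1, GAB1, CBL, CBLB and EPS15), 0 of 7 passed against the same 9.55%, with 1, SOS1, at an unadjusted p of 0.05. SOS1, an exchange factor for RAS, changed by 0.24 (SE 0.08, adjusted p = 0.101), and the adaptor SHC1 by -0.24 (SE 0.12, adjusted p = 0.256). DESeq2 called 0 of the 5 and 0 of the 7, where it called 2246 of all genes.

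Of 13 feedback inhibitors, 2 rose and 0 fell, where 4.98% of all genes rose and 4.57% fell. DUSP4, a phosphatase that inactivates ERK, rose by 0.50 (SE 0.06, adjusted p = 5.60e-04), and SPRY4, an inhibitor of receptor tyrosine kinase signalling, by 0.57 (SE 0.13, adjusted p = 0.0277). The median log2 change of the 13 was 0.09. Of 12 genes known as outputs of ERK signalling, 3 rose (LIF, PLAUR and IER3) and 0 fell, beside the same shares of all genes, with a median of 0.18. LIF, a cytokine, rose by 0.57 (SE 0.07, adjusted p = 0.00142), and PLAUR, the urokinase receptor, by 0.77 (SE 0.12, adjusted p = 0.00383). In D-F alone 5 of the 12 passed, all higher, where 5.84% of all genes passed. In A-C alone 0 passed with edgeR, where 7.18% of all genes passed, and 2 reached an unadjusted p of 0.05. DESeq2 called 0 of the 12 there and 1924 of all genes. LIF changed by 1.08 in D-F and by 0.06 in A-C, and the difference of 1.02 passed (SE 0.15, adjusted p = 0.0131). It was the only one of the 12 whose difference between sets passed, where 1.88% of all genes passed. The LIF difference was not rerun with samples left out.

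**Figure D4:**
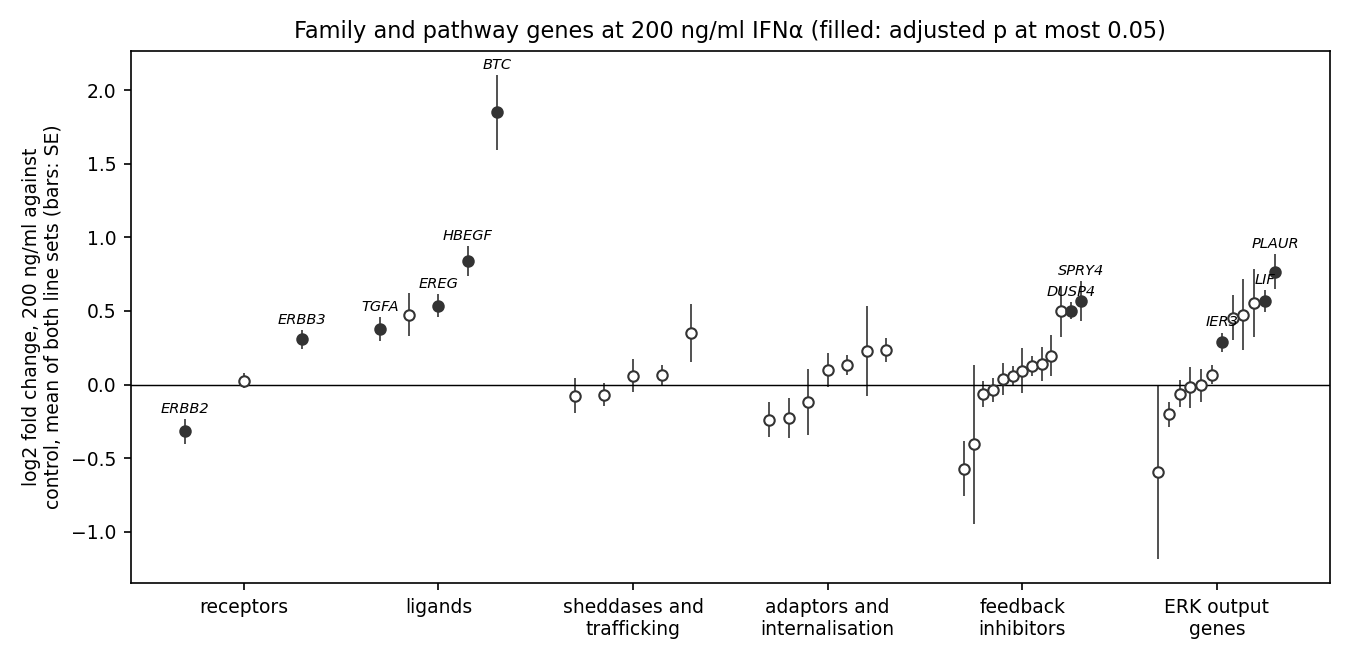
Log2 fold change at 200 ng/ml IFNα against control, averaged over line sets (vertical axis), for 8 family genes and the genes of 4 pathway lists, with bars of 1 standard error. Filled points passed an adjusted p of 0.05 and are named. BTC at 1.85 is the highest point, and the sheddase and adaptor lists hold no filled point.

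The transcript table gave the isoforms behind these levels, as shares of the summed transcript TPM of each gene. EREG-201 made up 75.9% to 85.5% of EREG, TGFA-201 82.6% to 92.4% of TGFA, HBEGF-201 72.1% to 88.7% of HBEGF and AREG-201 79.2% to 98.7% of AREG. All 4 are protein coding, and each was the main transcript in every sample. For EGFR, the full-length EGFR-201 (28 exons, 9821 bases) held 73.2% ± 3.4 (SD, n = 6) in A-C and 69.3% ± 1.9 (SD, n = 6) in D-F. EGFR-208, a short transcript of 2 exons and 452 bases with no coding sequence annotated, was second with 15.8% ± 3.5 and 15.7% ± 1.1. Its share in A-C was 13.4% and 12.5% in A, 14.3% and 14.4% in B, and 18.4% and 21.6% in C, so that the doses did not overlap, while EGFR-201 stood at 75.6% and 76.6% in A and 70.4% and 67.7% in C. In D-F the EGFR-208 share lay between 13.8% and 17.2%, with D and F overlapping. These shares were not tested. ERBB2 had no steady main transcript, and ERBB2-206, annotated as a target of nonsense-mediated decay, ranged from 0 to 51.5% of its TPM. ERBB3-201 ranged from 8.51% to 46.9%. Transcripts that share exons are told apart only by estimation.

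The genes most like each member were ranked by Pearson correlation of log2 CPM, centred within line sets, over the 12 samples and 19943 other genes. The genes share libraries, depth and dose groups, so these values are a description and carry no test. The genes most like BTC included POLQ (r = 0.994) and CD274 (0.982), the latter of which encodes PD-L1. HBEGF was most like OSMR (0.987), a cytokine receptor subunit, followed by DGKG and KRT6A. EREG was most like DUSP4 (0.963), which is also among the feedback inhibitors above. ERBB3 was closest to CNNM4 (0.973), TGFA to MED8 (0.958) and ERBB2 to PGK1 (0.944). Among the members themselves, HBEGF correlated with ERBB3 at 0.914 and with TGFA at 0.889, and BTC with EREG at 0.842. ERBB2 correlated negatively with each of the other 8, from -0.08 for EPGN, which had few counts, to -0.75 for EREG.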

How the data were processed

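Total RNA of 12 cell line samples was depleted of ribosomal RNA, and strand-specific libraries were sequenced. According to the submitters' processing notes, the tools were Trimmomatic 0.36, HISAT2 2.1.0 and StringTie 1.3.3b and the build was GRCh38.p10. Estimated counts per gene and per transcript were deposited as unscaled whole numbers. The deposited TPM and FPKM are corrected for length and depth, and FPKM was not used here. Transcript shares were taken from the deposited transcript TPM.

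Samples were grouped by title letter and dose. Counts were tested in edgeR 4.0.16 (R 4.3.3) with TMM, filterByExpr (minimum count 10), 1 model of 6 groups, the quasi-likelihood F test and Benjamini-Hochberg adjustment over 19944 genes, and a gene passed at an adjusted p of at most 0.05. Standard errors are the log2 change over the square root of F, and intervals are 95%. Replicates differed beyond counting noise (chi-square per degree of freedom 10.6 to 14.8). On simulated data for the 200 ng/ml comparison averaged over line sets (19944 genes), edgeR recovered 57 of 100 genes changed 2-fold and 80 of 100 changed 4-fold, with 9 false among 146 calls. No other genes were changed in the simulation, whereas 9.55% of genes passed in the data, so these rates need not carry over.

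The text names all 9 members, the other receptor and ligands by level, and from each pathway list the 2 genes of lowest adjusted p at 200 ng/ml, since none also changed 2-fold. Other pathway and marker genes were named after their values were seen, and some genes of these lists are not reported here. The members and lists were chosen with earlier results of these data known. Counts at an unadjusted p are given without a share of all genes. Alternatives were RLE scaling, no filter, DESeq2 1.42.0, a replicate block, only the groups compared, other thresholds, leaving out each sample, and, chosen after seeing the data, limma 3.58.1 on log2(TPM + 1). Promoter windows are from RefSeq. Precision is limited by 2 replicates per group and by depths of 10517448 to 16056734 counts.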

Additional observations from a re-analysis of the deposited data

How the results depend on the processing

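BTC, HBEGF and EREG at 200 ng/ml, averaged over line sets, kept their direction and passed under every alternative tool, scaling, filter, block, group choice and left-out sample that was run; with at least 2-fold added, only BTC of these genes passed. The count of members that passed was 6 at 200 ng/ml, 4 without a filter, 7 with DESeq2, 4 with log2(TPM + 1) and 3 to 6 when 1 sample was left out, 3 being without A replicate 2. The corresponding ranges were 5 to 7 for D against A control, 2 to 3 at 20 ng/ml, 0 to 3 in A-C and 1 to 5 in D-F at 200 ng/ml, 0 to 1 in A-C and 1 to 3 in D-F at 20 ng/ml, and 0 for 200 against 20 ng/ml and for both differences between sets. With DESeq2, 5 passed in A-C at 200 ng/ml, 2 in A-C at 20 ng/ml, and 1 in each difference between sets. Over all genes DESeq2 called 1924 and 506 in A-C, and 884 and 319 for the differences at 200 and 20 ng/ml. With only the groups compared, 0 members passed in A-C and 2 in D-F at 200 ng/ml. Over all genes, 210 passed in A-C and 814 in D-F in that setting, beside 1432 and 1164 in the main fit. With log2(TPM + 1), 2 members passed in D-F at 200 ng/ml and 1 at 20 ng/ml. With at least 2-fold added, 2 passed for D against A, 1 at 200 ng/ml, 1 at 20 ng/ml, 1 in A-C and 2 in D-F at 200 ng/ml, and 1 in D-F at 20 ng/ml. With an unadjusted p and 2-fold, the counts were 3, 1, 1, 1, 2 and 2 in the same order, and 1 in A-C at 20 ng/ml. The 3 for D against A include EPGN, whose counts were too few for a fold change. The cause of these moves was not tested.

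Same-numbered samples showed no strong shared deviation (correlations of -0.05 to 0.06), which cannot settle whether they were paired. With the replicate block, 6 members passed for D against A, 5 at 200 ng/ml, 2 in A-C at 200 ng/ml and 1 in D-F at 20 ng/ml. Over all genes, 7669, 1484, 803 and 452 passed with the block in the same order. The main fit gave 9261, 1905, 1432 and 672. The member calls not passed with the block were ERBB2 at 200 ng/ml (adjusted p = 0.0594) and ERBB3 for D against A (0.0712). ERBB2 in A-C at 200 ng/ml (0.0632) was also lost, as were ERBB3 (0.0503) and EREG (0.0664) in D-F at 20 ng/ml.

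Some values changed sign, none of them past the threshold. EGFR at 200 ng/ml was -0.0024 without a filter and -0.027 without C replicate 2 (leave-one-out range -0.027 to 0.067). In A-C it was -0.048 without C replicate 2 (range -0.048 to 0.14), and in D-F it was 0.0095 with log2(TPM + 1). EGFR at 20 ng/ml was 0.013 without E replicate 1 (range -0.030 to 0.013) and 0.029 with log2(TPM + 1). ERBB3 in A-C at 20 ng/ml was 0.0054 with only the groups compared, and 0.0081, 0.068, 0.0095, 0.0062 and 0.0083 without A replicate 1, B replicate 2, D replicate 1, E replicate 1 and F replicate 2 (range -0.11 to 0.068). AREG in D-F at 200 ng/ml was -0.098 without F replicate 1 (range -0.098 to 0.37). With log2(TPM + 1), ERBB2 in D-F was 0.061 (-0.16 in the main fit) and ERBB3 in A-C -0.19 (0.16 in the main fit) at 200 ng/ml. HBEGF for D against A control was not past the threshold on that scale (adjusted p = 0.128).

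RLE scaling moved the median log2 change of all genes by at most 0.03 and ended the ERBB2 call in A-C at 200 ng/ml (adjusted p = 0.0531). Without a filter, ERBB2 (0.0594) and ERBB3 (0.0612) averaged at 200 ng/ml, ERBB2 in A-C (0.0649) and ERBB3 in D-F (0.0529) did not pass. Depth limits BTC, with 12 counts in the lowest sample, and EPGN, with 0 to 19 counts.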
